A study of Mus musculus with 12 samples.

Results

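The results below describe 6 genes that encode chemokine receptors of myeloid cells, Ccr1, Ccr2, Ccr3, Cx3cr1, Cxcr4 and Ccrl2, across RNA-seq libraries of mouse bone marrow-derived macrophages (BMMs). They were taken by gene symbol from the 24421 genes listed in the files, and all 6 passed the filters on low values in both experiments. The study asked how the microRNA miR-182 acts on osteoclast differentiation, which RANKL induces in BMMs. In a loss of function experiment, BMMs of Mir182flox/floxLysMcre(+) mice, called Mir182ΔM/ΔM here, were set against BMMs of Mir182+/+LysMcre(+) mice, called WT, each without RANKL or after 5 days of RANKL. In a gain of function experiment, BMMs of LSL-Mir182LysMcre(+) mice, called Mir182mTg, were set against BMMs of LysMcre(+) littermates, called Control, without RANKL. Each of the 6 conditions had 2 libraries, 12 in all. The study names C57BL/6 as the background. All mice carried LysMcre, a Cre driven by the myeloid lysozyme M promoter. The deletion and the transgene, which lies behind a loxP-flanked stop in Rosa26, thus act in cells where that promoter has been active. Mice were matched for age and sex, but their ages and the number of animals behind a library are not given in the sources used here. All bone marrow had first been grown in M-CSF for 3 days.

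Chemokine receptors are membrane receptors coupled to Gi proteins that steer leukocytes along gradients of small secreted chemokines. Ccr2 binds Ccl2, Ccl7 and Ccl12 and carries inflammatory monocytes, from which osteoclast precursors can arise, out of the marrow and into inflamed tissue. Cx3cr1 is the receptor of fractalkine (Cx3cl1), Cxcr4 that of Cxcl12, which holds cells in the marrow, and Ccr1 that of several inflammatory chemokines such as Ccl3, Ccl5, Ccl6 and Ccl9. Ccr3 is best known as the eotaxin receptor of eosinophils. Ccrl2 is an atypical receptor that presents the chemoattractant chemerin (Rarres2) without signaling like the others.

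The microRNA that was deleted or expressed is shown first, from RefSeq on GRCm38.p6, with the seed (bases 2 to 8), the stretch that pairs with target RNAs, in capitals. It is read from the minus strand at chr6:30165962-30165986.
mmu-miR-182-5p: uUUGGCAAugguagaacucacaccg
The 7-base complement of this seed, TTGCCAA, and the shorter match followed by A, TGCCAAA, were searched for on the sense strand in the annotated 3′ untranslated regions of GENCODE vM21 (GRCm38). Of 21010 genes with such a region, 11.4% held the first, 12.5% the second and 18.3% either of them. Among the receptors, Ccr2 held TTGCCAA, and neither string was found in the annotated regions of Ccr1, Ccr3, Cx3cr1, Cxcr4 or Ccrl2. The Ccr2 match lies at chr9:124108462-124108468 on the plus strand, 1656 bases into a region of up to 2701 bases, in 3 annotated Ccr2 transcripts. It is shown in capitals because Ccr2 was the receptor that passed the test in the gain of function experiment, without replicate number as a block.
Ccr2 site: gagctcttatcTTGCCAAggttgaaaatag
A match is a description of the letters and not a measured target site.

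Ccr1, Ccr3 and Ccr2 are neighbours on chromosome 9 of GRCm38 and span 151 kb. Ccr1 lies at chr9:123962124-123968692 on the minus strand, Ccr3 at chr9:124021972-124031689 and Ccr2 at chr9:124101950-124113557 on the plus strand, with Ccr1l1 between the first pair. Ccrl2 (chr9:111054486-111057519, minus strand) and Cx3cr1 (chr9:119901616-120069879, minus strand) lie elsewhere on chromosome 9, and Cxcr4 (chr1:128588199-128592293, minus strand) on chromosome 1. The annotated span of Cx3cr1 overlaps 9 other genes, some on the opposite strand, and these libraries do not mark strand. The promoters of the 3 neighbours, 250 bases before to 50 bases after the RefSeq start and written in the direction of the gene, are shown because these adjoining genes moved in different ways. Capitals mark GAGGAA, the core of the site of the myeloid factor PU.1, and TGANTCA, the site of AP-1, the family of the osteoclast factor c-Fos, found on either strand.
Ccr1 promoter, chr9:123968643-123968942, minus strand: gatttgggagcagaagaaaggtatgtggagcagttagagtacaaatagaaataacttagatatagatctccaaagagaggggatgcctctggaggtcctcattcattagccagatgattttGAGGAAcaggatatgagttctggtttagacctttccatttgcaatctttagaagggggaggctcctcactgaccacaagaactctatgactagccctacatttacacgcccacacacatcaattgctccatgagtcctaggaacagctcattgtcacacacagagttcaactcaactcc
Ccr3 promoter, chr9:124021721-124022020, plus strand: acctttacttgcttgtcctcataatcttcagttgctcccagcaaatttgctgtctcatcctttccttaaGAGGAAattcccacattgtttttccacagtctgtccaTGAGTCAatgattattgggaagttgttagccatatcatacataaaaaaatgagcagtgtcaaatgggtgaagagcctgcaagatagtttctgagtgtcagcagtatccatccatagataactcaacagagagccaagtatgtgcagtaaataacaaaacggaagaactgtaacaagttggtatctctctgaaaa
Ccr2 promoter, chr9:124101933-124102232, plus strand: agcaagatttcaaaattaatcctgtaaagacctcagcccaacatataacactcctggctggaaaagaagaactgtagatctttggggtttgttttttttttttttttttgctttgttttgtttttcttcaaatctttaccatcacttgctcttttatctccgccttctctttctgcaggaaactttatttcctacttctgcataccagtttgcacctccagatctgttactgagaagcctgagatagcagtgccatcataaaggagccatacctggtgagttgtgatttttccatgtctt
The PU.1 core stood in the Ccr1 and Ccr3 promoters, and in 28.3% of all 32851 promoters of this length. The AP-1 site stood in the Ccr3 promoter, and in 7.81% of all. Neither string was found in these windows of Ccr2, Cx3cr1, Cxcr4 or Ccrl2 (3 windows). The matches do not overlap each other.

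The libraries held 24951280 to 33050619 reads on genes. A count of 3 reads, taken here as the limit of detection, came to between 0.0908 and 0.120 CPM, which are reads per 1000000 reads on genes, and every receptor had at least 21 reads in every library. The Mir182 row held 79 and 123 reads in the Mir182mTg libraries and at most 1 read in each of the others, so the gain is seen there and the deletion cannot be checked. Both WT libraries after RANKL were unlike the rest of that experiment in 2 genes. Lyz2, the gene of the lysozyme whose promoter drives Cre, was at 4117 and 4288 CPM there against 22.5 to 44.0 CPM in the other 6, and at 5783 to 7062 CPM in the gain of function libraries. The interferon-inducible Ifi202b was at 1.12 and 0.972 CPM there against 82.1 to 152 CPM in the other 6, and at 0 to 0.0908 CPM in the gain of function libraries. The WT response to RANKL, the comparison of genotypes after RANKL and the difference between the responses all rest on these 2 libraries, and their part in those results was not tested. In both genes they lie near the gain of function libraries, and whether they came from the same mice or the same batch as the untreated WT libraries is not given in the sources used here. If they did not, that difference and the effect of RANKL in WT cannot be told apart. The other 2 loss of function comparisons were also fitted without them. All 8 macrophage markers were detected in every library, with sums of 6097 to 12658 CPM, while 6 or 7 of 8 B and T cell markers were at or under 3 reads in each condition. The ribosomal precursor Rn45s was higher in replicate 2 than in replicate 1 of every condition (742 to 1176 against 9778 to 21273 CPM).

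Over the 6 conditions, the mean of Ccr1 was highest in WT BMMs after RANKL, Ccr2 and Cx3cr1 in Control BMMs, Ccr3 and Cxcr4 in WT BMMs after RANKL, and Ccrl2 in WT BMMs without RANKL. Ccr2 was lowest in Mir182ΔM/ΔM BMMs after RANKL, at 7.36 and 7.59 CPM. The plot of CPM by library shows these levels side by side.

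**Figure D1:**
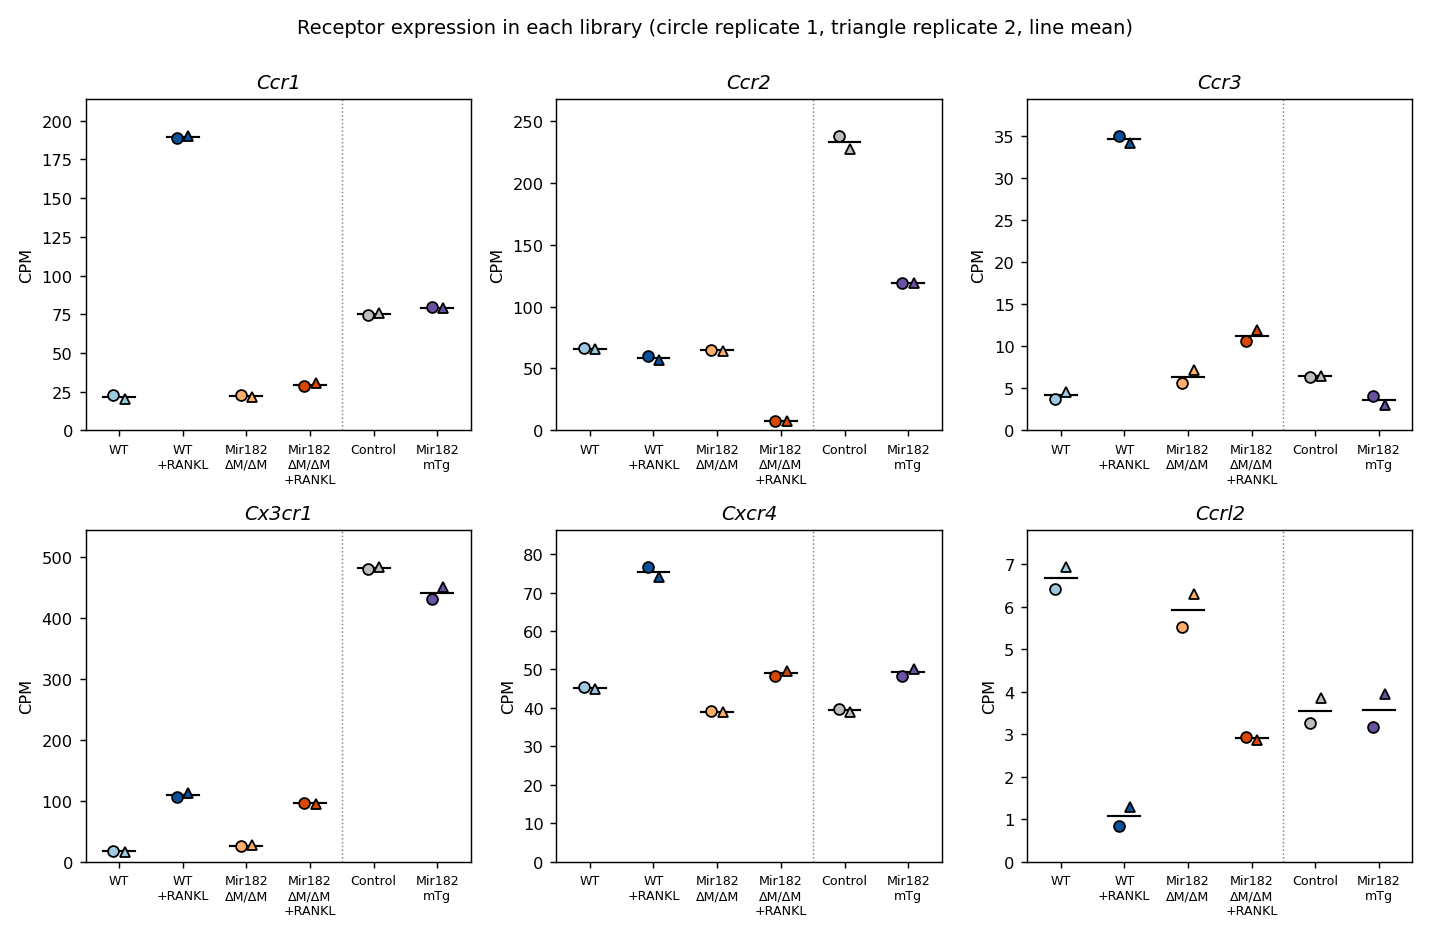
CPM (y axis, linear from 0) of the 6 receptors in each of the 12 libraries, by condition (x axis). Circles are replicate 1, triangles replicate 2 and lines the mean of the 2. The dotted line separates the loss of function from the gain of function experiment. Ccr1 after RANKL sits near 189.5 CPM in WT and near 29.4 CPM in Mir182ΔM/ΔM BMMs, and Ccr2 at 58.4 and 7.48 CPM.

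By their genotype names, the untreated controls of the 2 experiments, WT and Control, both carried LysMcre and no change at Mir182. They were not alike in Lyz2, at 44.0 and 39.8 CPM in WT and 5783 and 6615 CPM in Control BMMs. The reason was not tested. Cx3cr1 was at 17.7 and 16.0 CPM in WT and at 481 and 483 CPM in Control BMMs. Ccr2 was at 66.5 and 65.6 CPM in WT and at 238 and 227 CPM in Control, and Ccr1 at 22.5 and 20.2 CPM against 74.5 and 75.5 CPM. Ccrl2 was at 6.42 and 6.93 CPM in WT and 3.26 and 3.85 CPM in Control. Ccr3 (3.73 and 4.61 against 6.39 and 6.50 CPM) and Cxcr4 (45.6 and 44.9 against 39.7 and 39.0 CPM) lay closer together. In both experiments, CPM are reads scaled only by the library's total of reads on listed genes. The 2 experiments were tested in separate fits, so these levels are set side by side without a test. In the order of the 6 conditions, neighbours with overlapping replicates were Ccr1 in the 2 untreated loss of function conditions, Ccr3 in Control against untreated Mir182ΔM/ΔM and in WT against Mir182mTg, Cxcr4 in Mir182mTg against Mir182ΔM/ΔM after RANKL and in Control against untreated Mir182ΔM/ΔM, and Ccrl2 in Mir182mTg against Control.

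To compare genes with each other, reads were taken per kilobase (RPKM), which the files give for replicate 1. Without RANKL, Cxcr4 (25.1 RPKM) and Ccr2 (18.5 RPKM) led in WT BMMs, ahead of Ccr1 (7.95 RPKM) and Cx3cr1 (4.72 RPKM), with Ccrl2 (2.85 RPKM) and Ccr3 (1.14 RPKM) last. After RANKL, Ccr1 led in WT at 66.6 RPKM, and Ccrl2 fell to last at 0.373 RPKM. In Mir182ΔM/ΔM BMMs after RANKL, Cxcr4 (26.7 RPKM) and Cx3cr1 (25.8 RPKM) led, and Ccr2 stood at 2.05 RPKM. Control and Mir182mTg BMMs were led by Cx3cr1, at 128 and 115 RPKM. These values come from 1 library per condition and carry no replicate error.

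**Figure D2:**
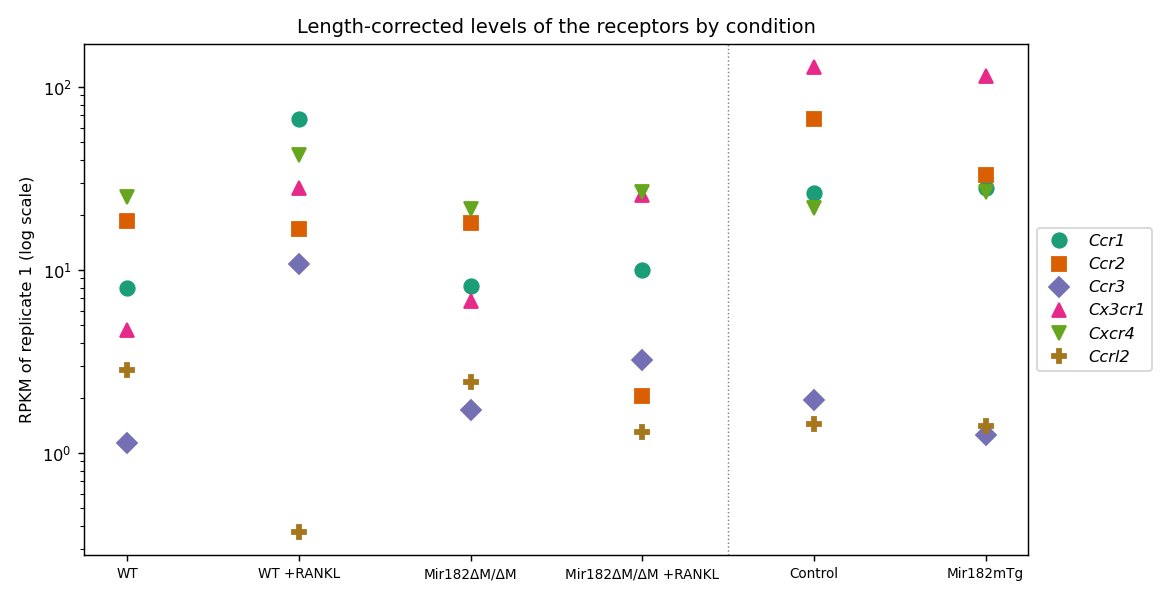
RPKM of replicate 1 (y axis, log scale) of the 6 receptors by condition (x axis), 1 symbol per gene. Cxcr4 leads in untreated WT BMMs (25.1 RPKM), Ccr1 in WT after RANKL (66.6 RPKM) and Cx3cr1 in Control (128 RPKM).

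Summed over the 6 receptors, expression was 158 and 162 CPM in untreated WT BMMs and 467 and 468 CPM after RANKL. In Mir182ΔM/ΔM BMMs it was 164 and 165 CPM before and 194 and 198 CPM after RANKL. Ccr1 made up 12.8 to 13.9% of the WT sum before RANKL and 40.4 to 40.6% after it. In Mir182ΔM/ΔM BMMs the share of Ccr2 went from 38.9 to 39.6% down to 3.78 to 3.84%, and that of Cx3cr1 from 15.5 to 16.2% up to 48.3 to 49.7%. The sum counts long transcripts more than short ones and is a description without a test.

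In WT BMMs, 4 of the 6 receptors rose with RANKL and Ccrl2 fell, by limma on log2(CPM + 1) with Benjamini-Hochberg adjustment over 11691 genes, where 40.6% of all genes tested were called higher and 22.0% lower. Of the CC receptors, Ccr1 went from 22.5 and 20.2 CPM to 189 and 190.4 CPM, both treated libraries far above both untreated ones. This is 8.87-fold, a log2 fold change of 3.09 ± 0.08 (SE, adjusted p = 2.5e-07). Ccr3 went from 3.73 and 4.61 CPM to 35.1 and 34.2 CPM, also without overlap, 8.30-fold (log2 2.79 ± 0.13, adjusted p = 3.0e-06). Ccr2 had 66.5 and 65.6 CPM before and 60.1 and 56.7 CPM after RANKL, log2 -0.18 ± 0.07. It did not pass at adjusted p = 0.0576, but it did with replicate number as a block (adjusted p = 0.0050, with 29.0% of genes called lower) and with TMM scaling (log2 -0.38, adjusted p = 0.0021).

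The fractalkine receptor Cx3cr1 rose from 17.7 and 16.0 CPM to 105 and 112 CPM, 6.45-fold (log2 2.62 ± 0.08, adjusted p = 3.9e-07). The stromal homing receptor Cxcr4 rose by less, from 45.6 and 44.9 CPM to 76.7 and 74.0 CPM, 1.67-fold (log2 0.72 ± 0.06, adjusted p = 5.7e-05). In neither gene did the groups overlap. Nor did they in Ccr2, which did not pass, and the share of all genes without overlap was not counted. The atypical receptor Ccrl2 fell from 6.42 and 6.93 CPM to 0.838 and 1.30 CPM, or from 210 and 173 reads to 21 and 36 reads, a 6.26-fold drop (log2 -1.90 ± 0.13, adjusted p = 1.8e-05). At such low levels the fitted value depended on the pseudocount, with log2 -2.57 at 0.1 and -0.95 at 5, and edgeR on the recovered reads gave -2.84. The median of all genes in this comparison was 0.19 on the log2 scale. TMM scaling put it at -0.00 and turned 4741 higher and 2571 lower calls into 3369 and 3562, and under it the 5 called receptors kept their directions (Ccr1 log2 2.89, Ccr3 2.60, Cx3cr1 2.42, Cxcr4 0.52, Ccrl2 -2.03).

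Osteoclast markers summed to 144 to 173 CPM in untreated WT and to 10643 to 10857 CPM after RANKL, with 10 of 10 higher. Macrophage markers fell in 8 of 8, inflammatory monocyte markers in 5 of 7, and the neutrophil list from 93.9 to 103 CPM down to 22.2 to 22.6 CPM. The eosinophil list, of cells known for Ccr3, summed to 4.46 to 5.09 CPM before and 0.758 to 0.936 CPM after RANKL, with Epx, Prg3, Il5ra, Ear1 and Ear6 at or under 3 reads in each WT library after RANKL. Mast cell and basophil markers summed to 1.19 to 1.92 CPM there, with 6 of 8 at or under 3 reads. Dendritic cell markers rose in 4 of 4 tested, from 41.9 to 45.9 CPM up to 144 to 159 CPM, and stromal cell markers lay between 2.03 and 47.3 CPM over all 12 libraries. The part of these shifts in the receptor results was not tested, and in bulk RNA fewer cells of a type and less RNA per cell cannot be told apart.

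In Mir182ΔM/ΔM BMMs, all 6 receptors changed with RANKL, 4 of them higher and 2 lower, against 30.4% of all genes tested called higher and 26.4% lower. Ccr1 went from 23.0 and 21.8 CPM to 28.5 and 30.3 CPM, 1.31-fold (log2 0.38 ± 0.08, adjusted p = 0.0057). Ccr3 went from 5.66 and 7.13 CPM to 10.6 and 11.9 CPM, 1.76-fold (log2 0.73 ± 0.13, adjusted p = 0.0028). Ccr2 fell from 64.9 and 64.3 CPM to 7.36 and 7.59 CPM, that is from 1753 and 1722 reads to 224 and 193, an 8.64-fold drop (log2 -2.95 ± 0.07, adjusted p = 2.4e-07). Ccr2 thus had the largest log2 fold change of the 6 in these BMMs and the smallest in WT.

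Cx3cr1 rose from 25.3 and 26.8 CPM to 96.7 and 95.4 CPM, 3.69-fold (log2 1.84 ± 0.08, adjusted p = 2.3e-06). Cxcr4 rose from 39.3 and 38.8 CPM to 48.4 and 49.5 CPM, 1.25-fold (log2 0.32 ± 0.06, adjusted p = 0.0041). Ccrl2 fell from 5.51 and 6.31 CPM to 2.92 and 2.87 CPM, a 2.04-fold drop (log2 -0.82 ± 0.13, adjusted p = 0.0014). Treated and untreated libraries did not overlap in any of the 6 genes, but the share of all genes without overlap was not counted. The Ccrl2 value was -0.47 with a pseudocount of 5 and -1.07 with edgeR. This comparison does not draw on the WT libraries after RANKL, and without them in the fit the same 6 receptors were called in the same directions. Osteoclast markers were at 150.0 to 182 CPM before and 3253 to 3285 CPM after RANKL, with 9 of 10 higher. The monocyte gene F13a1 went from 249.9 and 232 CPM to 4.99 and 4.84 CPM and the matrix gene Vcan from 2.78 and 3.47 CPM to 224 and 219 CPM, so the monocyte list did not move in 1 direction (2 of 7 rose and 5 fell). Neutrophil and precursor markers fell in 8 of 8 tested, from 113 to 118 CPM down to 7.19 to 7.40 CPM, and macrophage markers in 5 of 8. Their part in the fall of Ccr2 was not tested.

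The difference between the 2 responses was tested as the genotype by RANKL interaction, in which 7.44% of all genes were called higher and 17.1% lower. All 6 receptors passed, 5 with a weaker rise or a stronger fall in Mir182ΔM/ΔM BMMs, and Ccrl2 with a weaker fall. Ccr2 and Ccr1 differed most, by log2 -2.77 ± 0.10 (adjusted p = 1.5e-05) and -2.71 ± 0.11 (adjusted p = 2.5e-05). For Ccr1 this set a log2 fold change of 3.09 in WT against 0.38 in Mir182ΔM/ΔM BMMs, and for Ccr2 -0.18 against -2.95. Ccr3 differed by -2.06 ± 0.19 (adjusted p = 0.00039) and Cx3cr1 by -0.78 ± 0.11 (adjusted p = 0.0025). Cxcr4 differed by -0.40 ± 0.09 (adjusted p = 0.0160), a call that was lost with TMM scaling (-0.24, adjusted p = 0.0992), with edgeR and DESeq2, and without any of 5 single libraries (adjusted p = 0.0542 to 0.0704). These were replicate 1 of WT after RANKL and of Mir182ΔM/ΔM without and after RANKL, and replicate 2 of both genotypes without RANKL. Ccrl2 differed by 1.08 ± 0.19 (adjusted p = 0.0058), with 0.48 at a pseudocount of 5 and 1.76 with edgeR. These values share the 2 WT libraries after RANKL named above.

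**Figure D3:**
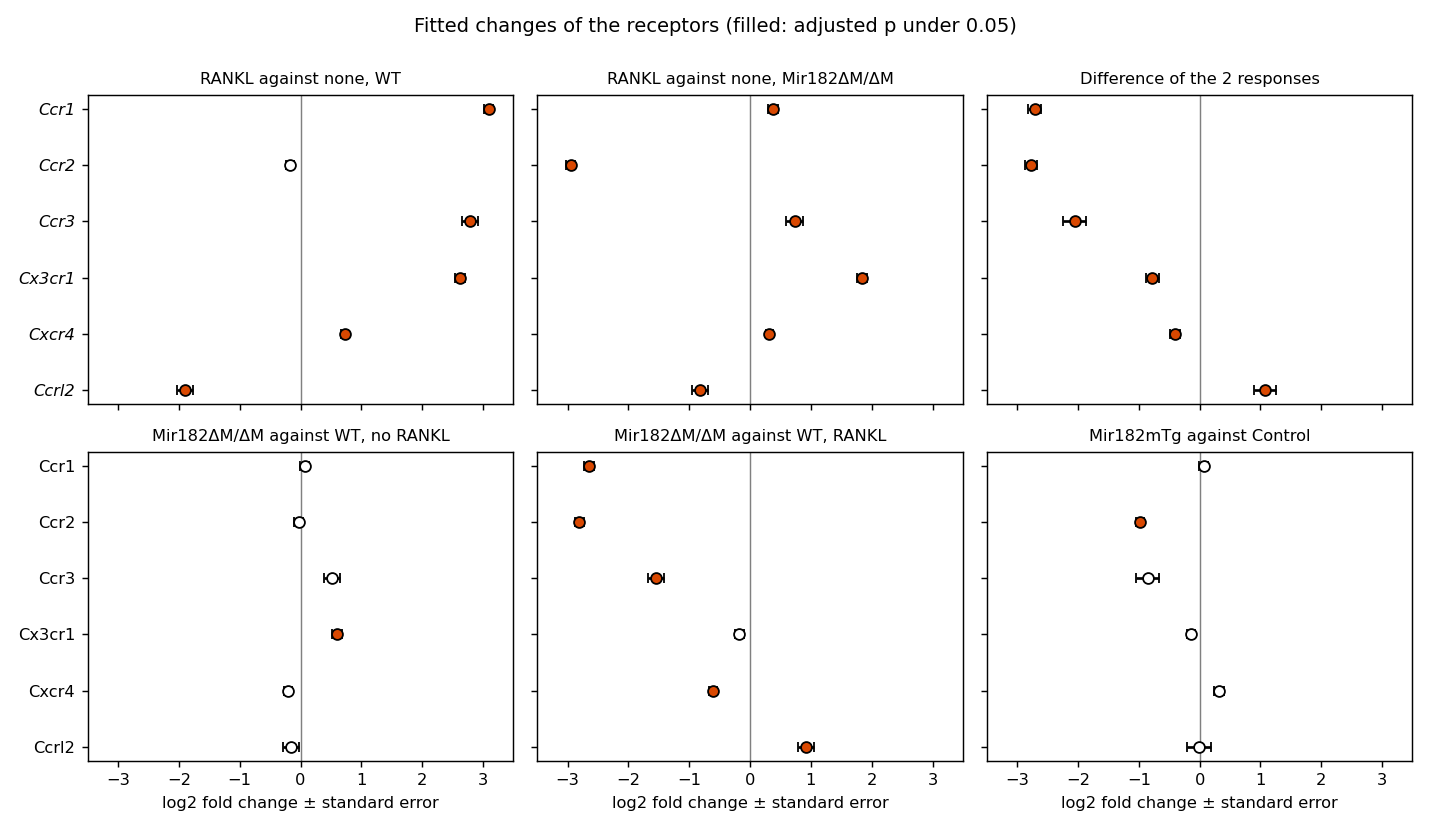
Log2 fold change with its standard error (x axis) of each receptor (y axis) in the 6 comparisons, from limma for the loss of function and edgeR for the gain of function experiment. Filled points passed an adjusted p of 0.05. The interaction panel has all 6 points filled, from -2.77 for Ccr2 to 1.08 for Ccrl2.

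Between untreated Mir182ΔM/ΔM and WT BMMs, 1 of the 6 receptors passed, against 2.71% of all genes called higher and 1.10% lower. Cx3cr1 was at 25.3 and 26.8 CPM in Mir182ΔM/ΔM and 17.7 and 16.0 CPM in WT BMMs, 1.54-fold higher without overlap (log2 0.60 ± 0.08, adjusted p = 0.0096). That call was lost when any of 3 libraries was left out, Mir182ΔM/ΔM replicate 1 (adjusted p = 0.0660), Mir182ΔM/ΔM replicate 2 (0.0891) or WT replicate 2 (0.0688), and when the fit held only these 2 conditions (0.0871), with log2 0.53 to 0.64 in each. It held without the WT libraries after RANKL (adjusted p = 0.0266). With replicate number as a block, 3 receptors passed, where 18.6% of all genes were called higher and 12.7% lower. These were Cx3cr1 (log2 0.60, adjusted p = 4.3e-08), Ccr3 (log2 0.51, adjusted p = 0.00023) and Cxcr4 (log2 -0.21, adjusted p = 0.0018). Ccr3 was at 5.66 and 7.13 against 3.73 and 4.61 CPM, and Cxcr4 at 39.3 and 38.8 against 45.6 and 44.9 CPM, neither with overlap.

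Ccr1 (23.0 and 21.8 against 22.5 and 20.2 CPM), Ccr2 (64.9 and 64.3 against 66.5 and 65.6 CPM) and Ccrl2 (5.51 and 6.31 against 6.42 and 6.93 CPM) did not pass in either fit. The Ccr1 groups overlapped, and those of Ccr2 and Ccrl2 lay side by side without overlap. For untreated BMMs too, the share of all genes without overlap was not counted. Their log2 differences were 0.07 ± 0.08, -0.03 ± 0.07 and -0.15 ± 0.13.

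After RANKL, Mir182ΔM/ΔM BMMs had less Ccr1, Ccr2, Ccr3 and Cxcr4 than WT BMMs and more Ccrl2, so 5 of 6 receptors passed, against 14.3% of all genes called higher and 30.9% lower. Ccr1 was at 28.5 and 30.3 against 189 and 190.4 CPM, 6.45-fold lower (log2 -2.65 ± 0.08, adjusted p = 1.4e-06). Ccr2 was at 7.36 and 7.59 against 60.1 and 56.7 CPM, 7.81-fold lower (log2 -2.81 ± 0.07, adjusted p = 6.4e-07). Ccr3 was at 10.6 and 11.9 against 35.1 and 34.2 CPM, 3.08-fold lower (log2 -1.54 ± 0.13, adjusted p = 0.00012). These 3 receptors, which are near each other on chromosome 9, were thus all lower. That does not describe the whole region. Ccr1l1, between Ccr1 and Ccr3, was at 0.526 and 0.551 against 0.160 and 0.396 CPM, or 16 and 14 against 4 and 11 reads.

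Cxcr4 was at 48.4 and 49.5 against 76.7 and 74.0 CPM, 1.54-fold lower (log2 -0.61 ± 0.06, adjusted p = 0.00027). Cx3cr1 reached 96.7 and 95.4 CPM against 105 and 112 CPM, a gap of log2 -0.18 ± 0.08 that did not pass (adjusted p = 0.107). It passed with the replicate block (adjusted p = 0.0075, where 49.7% of genes were called lower), and TMM scaling brought it to -0.02. Ccrl2 was at 2.92 and 2.87 against 0.838 and 1.30 CPM, 2.72-fold higher (log2 0.92 ± 0.13, adjusted p = 0.0012), and 0.38 at a pseudocount of 5 or 1.58 with edgeR. Osteoclast markers were lower in 8 of 10 (sums of 3253 to 3285 against 10643 to 10857 CPM) and the neutrophil list in 7 of 8 tested, with sums of 7.19 to 7.40 against 22.2 to 22.6 CPM. Dendritic cell markers were lower in 3 of 4 tested (70.5 to 74.7 against 144 to 159 CPM). Macrophage markers were higher in 3 and lower in 2 of 8, and monocyte markers higher in 2 and lower in 3 of 7. Their part was not tested. All genes had a median of -0.14 here, which TMM scaling moved to -0.00, changing 1668 higher and 3607 lower calls to 2438 and 2362.

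With Mir182 expressed from the transgene, Ccr2 was the 1 receptor that passed in the fit without replicate number as a block, and it was lower. By edgeR on the counts of 12081 genes, 0.0993% of genes were called higher and 0.157% lower in Mir182mTg than in Control BMMs, and Ccr2 was among the 19 lower ones. It was at 119.03 and 119.05 CPM, or 3934 and 3325 reads, in Mir182mTg against 238 and 227 CPM in Control, 1.96-fold lower (log2 -0.98 ± 0.07, adjusted p = 0.0211). The call held in all 10 alternatives, with log2 between -1.01 and -0.95. Of the 50-base stretches of Ccr2 transcripts, 129 of 6758 (1.91%) recur in other genes, so a small share of reads could fall to another gene.

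The other 5 receptors did not pass in this comparison. Ccr1 was at 79.4 and 79.1 against 74.5 and 75.5 CPM (log2 0.07 ± 0.07, adjusted p = 0.9997), narrowly without overlap, and Ccrl2 at 3.18 and 3.94 against 3.26 and 3.85 CPM, with overlap. Ccr3 was at 4.11 and 3.01 against 6.39 and 6.50 CPM (log2 -0.86 ± 0.19, adjusted p = 0.284), Cx3cr1 at 431 and 451 against 481 and 483 CPM (log2 -0.14 ± 0.07, adjusted p = 0.851) and Cxcr4 at 48.3 and 50.2 against 39.7 and 39.0 CPM (log2 0.31 ± 0.08, adjusted p = 0.391). In these 3 genes the groups did not overlap either, but the share of all genes without overlap was not counted. All 3 passed with replicate number as a block, where 6.94% of genes were called higher and 8.15% lower (adjusted p = 0.00058, 0.0027 and 0.00030). Neutrophil and precursor markers summed to 113 to 122 CPM in Mir182mTg and 53.1 to 53.2 CPM in Control, and 8 of 8 tested were higher with the block but did not pass without it. The inflammatory monocyte list, of cells known to carry Ccr2, summed to 124 to 125 against 119.7 to 122 CPM, and with the block 3 of its 7 genes were higher and 1 lower, none of which passed without it. Their part in the Ccr2 result was not tested. Ccr2 thus was lower in Mir182mTg BMMs without RANKL and in Mir182ΔM/ΔM BMMs after RANKL, each against its own control, and did not pass in untreated Mir182ΔM/ΔM BMMs.

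Of 18 other chemokine receptors, which had been listed by family, 4 were expressed enough to be tested in the loss of function experiment. Cxcr3, known from activated T cells, fell in both, to 3.03 and 3.38 CPM in WT and 1.12 and 1.61 CPM in Mir182ΔM/ΔM BMMs. In all, 1 rose and 2 fell in WT, where 40.6% of all genes tested were called higher and 22.0% lower. In Mir182ΔM/ΔM BMMs 3 fell, against 26.4% of all genes called lower. Ackr1, the riser, was at 0 reads in untreated BMMs and 1.08 and 1.30 CPM in WT after RANKL, the only libraries where it reached 1 CPM. Ccr1l1 reached 1 CPM only in untreated libraries (1.04 CPM in WT and 1.01 CPM in Mir182ΔM/ΔM). Both thus passed the filter only where they were high, so their directions are no separate result. Among 10 tested receptors for other chemoattractants, 9 fell and 1 rose in WT, against 22.0% and 40.6% of all genes. After RANKL 5 were higher and 1 lower in Mir182ΔM/ΔM than in WT BMMs, against 14.3% and 30.9% of all genes. The complement receptor C5ar1, for example, was at 528 and 469 against 161 and 144 CPM (log2 1.70 ± 0.10, adjusted p = 1.7e-05).

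The ligands were read out in the same cells, with 11 of 15 tested in the loss of function experiment. In WT BMMs 1 ligand rose with RANKL and 6 fell (40.6% and 22.0% of all genes tested), and in Mir182ΔM/ΔM BMMs 4 rose and 5 fell (30.4% and 26.4%). Between the genotypes after RANKL, 8 were higher and 1 lower in Mir182ΔM/ΔM (14.3% and 30.9%). Ccl8 (1.91 and 3.34 CPM) and Cxcl12 (1.68 and 1.73 CPM) reached 1 CPM only in Mir182ΔM/ΔM BMMs after RANKL. They passed the filter only where they were high, so their directions are no separate result. The Ccr2 ligands Ccl2, Ccl7 and Ccl12 were higher in Mir182ΔM/ΔM BMMs without RANKL. Ccl2 was at 103 and 109 against 44.4 and 40.0 CPM (log2 1.31 ± 0.08, adjusted p = 0.00057), Ccl7 at 37.8 and 42.0 against 13.3 and 13.3 CPM (log2 1.51 ± 0.14, adjusted p = 0.0024) and Ccl12 at 5.77 and 5.71 against 1.59 and 2.61 CPM (log2 1.14 ± 0.16, adjusted p = 0.0124). The same 3 were higher after RANKL, by log2 1.72, 1.55 and 1.43, where Ccr2 itself was lower. In Mir182mTg against Control BMMs, Ccl2 was at 369.8 and 358 against 340.1 and 343 CPM (log2 0.08 ± 0.07, adjusted p = 0.9997 by edgeR).

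The ligands of Ccr1 did not move as 1 group. Ccl5 rose with RANKL in Mir182ΔM/ΔM BMMs, from 2.33 and 2.05 CPM to 17.7 and 17.7 CPM (log2 2.55 ± 0.13, adjusted p = 5.8e-06), and was at 1.36 and 1.84 CPM after RANKL in WT. Ccl9 rose from 966 and 869 to 1525 and 1431 CPM in WT (log2 0.69 ± 0.07, adjusted p = 0.00018) and was lower in Mir182ΔM/ΔM BMMs after RANKL (899 and 875 CPM). Ccl3, Ccl4 and Ccl6 fell with RANKL in both genotypes. Ccl6 fell from 347 and 345 to 48.4 and 50.8 CPM in WT and from 213 and 207 to 81.1 and 83.9 CPM in Mir182ΔM/ΔM BMMs. The ligand of Cx3cr1 (Cx3cl1) was below 1 CPM in every loss of function library. In the gain of function experiment it was at 1.18 and 1.25 CPM in Control and 2.48 and 2.76 CPM in Mir182mTg BMMs. Of 10 ligands tested in that experiment, 0 passed without the replicate block and 1 was higher with it (6.94% of all genes). Cxcl12 was at 0.439 to 1.73 CPM in the loss of function libraries. Ccl11 was at 0 reads in all 12 libraries and Rarres2, the chemerin that Ccrl2 binds, had at most 1 read in each. A count of 0 allows up to 0.120 CPM at the smallest library, by counting error alone.

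**Figure D4:**
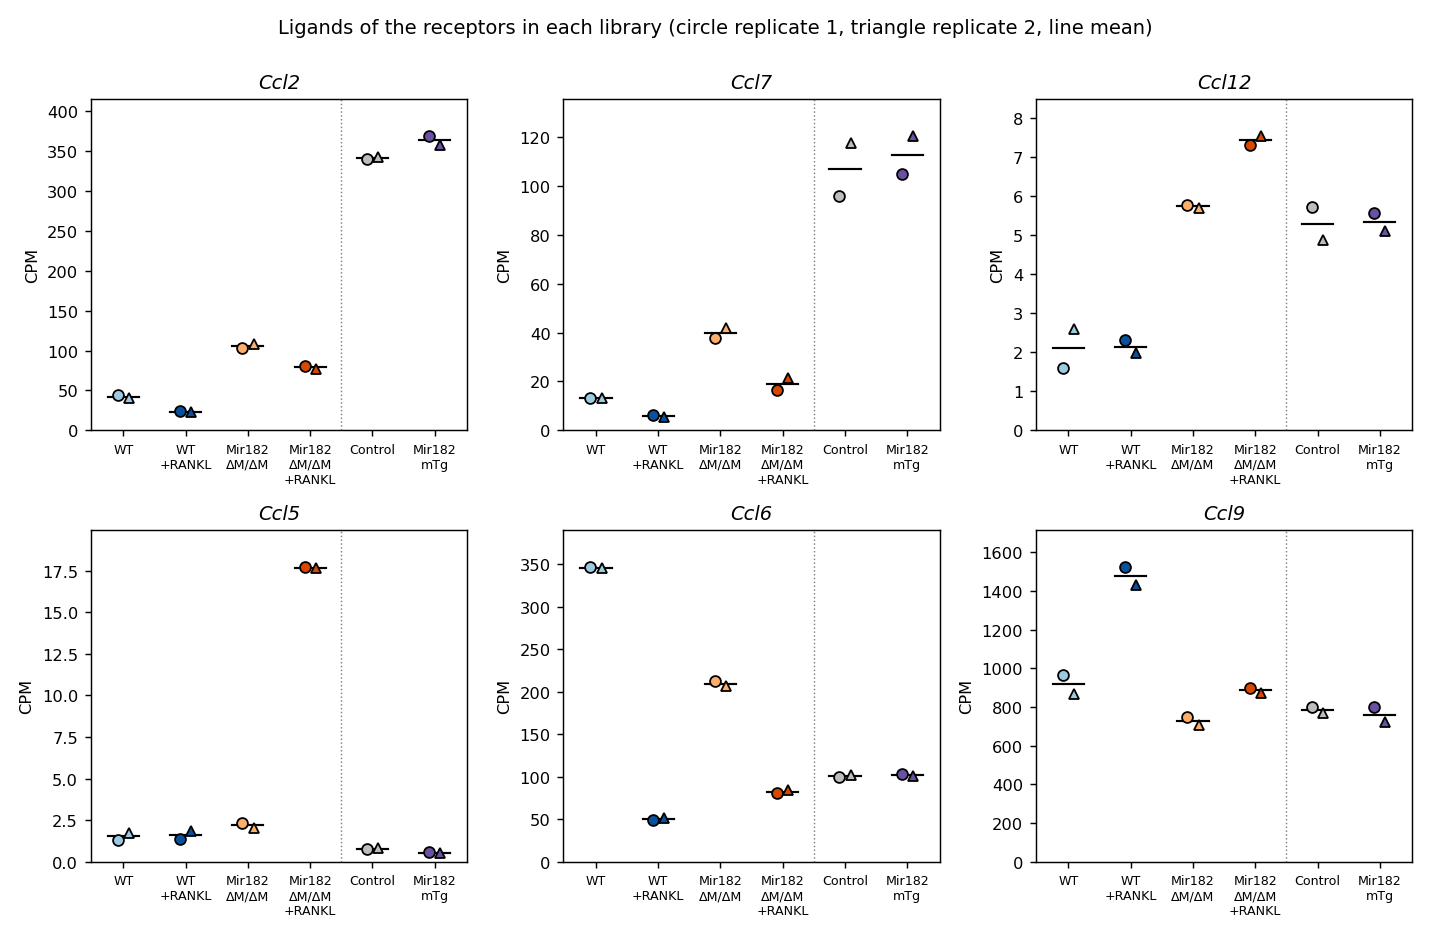
CPM (y axis, linear from 0) of 6 ligands in each of the 12 libraries, by condition (x axis), with symbols as for the receptors. Ccl2, Ccl7 and Ccl12 are higher in Mir182ΔM/ΔM than in WT BMMs with and without RANKL, Ccl5 is highest in Mir182ΔM/ΔM BMMs after RANKL (17.7 CPM), Ccl6 falls with RANKL and Ccl9 is highest in WT after RANKL.

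Of 34 tested genes that carry or end the signal of these receptors (G proteins, kinases, arrestins and regulators), 5 rose and 17 fell with RANKL in WT, and 7 rose and 19 fell in Mir182ΔM/ΔM BMMs. Among all genes tested, 40.6% were called higher and 22.0% lower in WT, and 30.4% and 26.4% in Mir182ΔM/ΔM BMMs. The medians of the list were log2 -0.24 and -0.30, against 0.19 and 0.05 for all genes. Rac2, the leukocyte Rac GTPase, was at 198 and 190.4 CPM in Mir182ΔM/ΔM against 802 and 766 CPM in WT BMMs after RANKL (log2 -2.01 ± 0.06, adjusted p = 1.4e-06). Rgs1, which ends Gi signaling, was at 21.5 and 22.2 against 4.59 and 4.68 CPM (log2 2.02 ± 0.09, adjusted p = 6.2e-06), and was also the 1 gene of the list that passed without RANKL (26.9 and 25.1 against 13.5 and 14.8 CPM). The Src family kinase Fgr rose with RANKL in both, from 3.45 and 2.61 to 90.9 and 89.1 CPM in WT and from 2.92 and 3.47 to 154 and 147 CPM in Mir182ΔM/ΔM BMMs.

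The genes whose profiles over the 12 libraries lay nearest to each receptor, by the root mean square difference of log2(CPM + 1) after centring within replicate number, differed from receptor to receptor. For Ccr1 the nearest of 10304 genes were Dtx4 (0.18), Slc4a3 (0.24) and Pkp2 (0.32). For Ccr2 they were Bcl2a1b (0.47), Rab27a (0.57) and Kctd17 (0.58), and for Ccr3 Tiam2 (0.27), Plcb4 (0.28) and Relt (0.29). For Cx3cr1 they were Itgal (0.61), Nptx1 (0.61) and Tmeff1 (0.72), for Cxcr4 BC026585 (0.08), Itpripl2 (0.08) and Enox2 (0.08), and for Ccrl2 Pmp22 (0.09), B3gnt3 (0.10) and the macrophage gene Cd14 (0.13). No receptor was among the nearest genes of another. Over the 8 loss of function libraries alone, 1 of these 18 genes, B3gnt3, stayed among the nearest 3 of its receptor.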

How the data were processed

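RNA-seq of BMMs was analysed in 6 conditions with 2 libraries each. Per the study's methods, poly-A RNA was sequenced, and reads were aligned to mm10 with TopHat or HISAT2 and counted with HT-seq. Per the labels, replicate 1 was made with TopHat and Cufflinks, and replicate 2 with HISAT2, HTSeq and edgeR (versions not given in the sources used here). The authors deposited CPM for the 8 loss of function libraries and raw counts of reads for the 4 gain of function libraries, and the replicate 1 files of the authors also hold RPKM, which the methods credit to Cufflinks but which equal CPM over 1 fixed length per gene. Here, 100% of the CPM values were whole multiples of the CPM of 1 read (tolerance 0.05 reads), which gave read totals. Counts were scaled to CPM over listed genes.

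CPM were tested with limma 3.58.1 (trend) on log2(CPM + 1) in 1 fit of 4 groups, keeping genes that reached 1 CPM in 2 libraries or more. Fold changes on this scale understate those of low genes. Counts were tested with edgeR 4.0.16 (quasi-likelihood, TMM, filterByExpr) in R 4.3.3. All p-values are two-sided, with Benjamini-Hochberg adjustment over all genes and a threshold of 0.05. Alternatives used TMM, quantile scaling, upper quartiles, other pseudocounts and filters, edgeR or DESeq2 1.42.0 on the recovered reads, a replicate block, fewer samples and leaving out each library.

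Replicate numbers pair the libraries, since deviations of same-numbered libraries correlated at 0.69 to 0.76 over all condition pairs within an experiment, and the labels give each number its own RNA type (polyA or total) and aligner. Over 9912 genes with at least 50 reads in each library, the variance between replicates was 9.17 to 11.8 times counting noise, and 1.51 to 2.18 times after removing the shift that the other conditions showed for the same gene. The methods call the replicates biological, but nothing ties them to separate animals, so p-values measure the spread between these libraries, which may be technical.

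The receptors and gene lists were chosen with earlier results of these data known. In each list at most 3 genes per comparison were named, those with the largest change among genes that passed, did not overlap and reached 5 CPM. Ackr1, Ccr1l1, Ccl8, Cxcl12, Ccl11, Cx3cl1, Rarres2 and Ccl9 were named after their values were seen. The 3 nearest profiles were named per receptor. The values of 1 gene that the rule named are not reported here. Sequences came from RefSeq (GRCm38.p6) and GENCODE vM21. Names of 27 genes had become dates in some files and were restored from files with the same row order.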

Additional observations from a re-analysis of the deposited data

Results flagged for a closer look

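The response to RANKL differed between Mir182ΔM/ΔM and WT BMMs for each of the 6 receptors, by the interaction term of limma with Benjamini-Hochberg adjustment. As the response in Mir182ΔM/ΔM minus that in WT on the log2 scale, the differences were -2.71 for Ccr1 (adjusted p = 2.5e-05), -2.77 for Ccr2 (adjusted p = 1.5e-05) and -2.06 for Ccr3 (adjusted p = 0.00039). They were -0.78 for Cx3cr1 (adjusted p = 0.0025), -0.40 for Cxcr4 (adjusted p = 0.0160) and 1.08 for Ccrl2 (adjusted p = 0.0058). Both replicates gave the same sign in 6 of 6 genes. These genes had passed the test on the same libraries, so the shared sign is no separate result. The share of all genes with the same sign was not counted. All 6 values rest on the WT libraries after RANKL, which stood apart in Lyz2 and Ifi202b and lay near the gain of function libraries there. A different origin of these 2 libraries and the effect of RANKL in WT cannot be told apart.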

How the results depend on the processing

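Groups had 2 libraries, so single libraries weigh heavily. In the comparison of untreated Mir182ΔM/ΔM and WT BMMs, 1 receptor passed in the reported fit, 3 passed with the replicate block (alone, with TMM scaling, with edgeR on recovered reads, and without the WT libraries after RANKL, an alternative chosen after seeing the data) and 0 with only the 2 conditions compared, where 3 had an unadjusted p under 0.05 in limma, and leaving out 1 library gave 0 to 1. Ccr1 there changed sign without WT replicate 2 (log2 -0.0078). In Mir182mTg against Control BMMs, 1 receptor passed, and 4 with the replicate block. Ccrl2, at -0.01 in the reported fit, changed sign with upper quartiles (0.0075) and ran from -0.17 to 0.14 when 1 library was left out (0.14 without Mir182mTg replicate 1 and 0.12 without Control replicate 2). The cause was not tested. For a loss of function comparison, the alternatives include leaving out libraries of conditions that it does not compare. Those leave a receptor's fold change as it was and can move only its p-value. Of 24 called receptor changes, 22 kept direction and call under all their alternatives. The others were Cx3cr1 without RANKL (18 of 22) and the Cxcr4 interaction (11 of 19, log2 -0.43 to -0.24, highest adjusted p = 0.214, lost with TMM, edgeR or DESeq2 and without any of 5 single libraries). With 1 CPM required in every library, Ccrl2 could not be fitted. The block changed no other receptor call than those given beside the results. Counts over all genes moved more than those of the receptors. Between untreated Mir182ΔM/ΔM and WT BMMs, 317 higher and 129 lower calls became 2170 and 1481 with the block (1955 and 1694 with TMM as well, 1915 and 1765 in edgeR), 395 and 227 in DESeq2, 71 and 31 with only the 2 conditions, and 212 and 79 without the WT libraries after RANKL (2052 and 1376 with the block). Leaving out 1 library gave 69 to 212 higher and 28 to 81 lower. Between genotypes after RANKL, 1668 and 3607 became 2740 and 5815 with the block, 2389 and 2362 in edgeR and 2331 and 2255 in DESeq2. With the block, TMM gave 4103 and 4006, and edgeR 4088 and 4072. For the interaction, 870 and 2005 became 1888 and 5001 with the block, 1239 and 1274 with TMM, 1133 and 1125 in edgeR and 1172 and 1082 in DESeq2. TMM or edgeR with the block gave 3166 and 2898 or 3044 and 2804. Without WT replicate 1 or 2 after RANKL they were 660 and 1271 or 675 and 1289. In WT, TMM or edgeR with the block gave 4629 and 4714 or 4625 and 4741. For Mir182mTg, 12 and 19 became 838 and 984 with the block, 60 and 69 in DESeq2, 22 and 24 in limma, 70 and 71 without a filter, and 31 to 85 higher and 24 to 81 lower without 1 library.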
